A study of Bos taurus with 13 samples.

Results

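Lymphoid organs of cattle were set against adipose tissue, adrenal tissue and liver on a cDNA microarray built from bovine mammary sequences. The comparison used 6 of the 13 arrays of the series. On the lymphoid side stood 1 array each of bovine lymph tissue, bovine spleen and bovine thymus, and on the other side 1 array each of adipose tissue, adrenal tissue and liver. They were chosen by the tissue that the labels name. Each array was a 2-colour hybridisation in which a cell line named BovMac was in channel 1 and the tissue in channel 2, so the 6 arrays share 1 reference. The remaining 7 arrays held ileum, mammary gland at several stages, and the reference against itself. The labels give no breed, age, treatment or number of animals for the 6 organs, nor whether several organs came from 1 animal, and "lymph tissue" is not specified further. Because each organ has 1 array, the organs are the replicates of a side. A p-value therefore measures a difference against the spread between arrays of different organs, which limma partly pools over all rows. Organ and hybridisation cannot be told apart in that spread, and it says nothing of the spread between animals.

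Lymphoid organs hold dense populations of lymphocytes together with macrophages, dendritic cells and a supporting stroma. In the thymus T cells mature, whereas the spleen and lymph nodes are where mature lymphocytes meet antigen. Antigen-presenting cells show peptides on class II molecules of the major histocompatibility complex, whose assembly depends on the invariant chain CD74, while class I molecules are carried by nearly every nucleated cell. PTPRC, also called CD45, is a surface phosphatase of white blood cells. Adipose tissue stores lipid, the adrenal gland makes steroid hormones and catecholamines, and the liver makes most plasma proteins. Of 26 gene lists drawn up for these tissues, 4 had 0 genes on the array, namely the lists for T cells, for B cells and plasma cells, for adrenal steroid synthesis and for red cells. The labelled organs could therefore not be checked against the defining genes of lymphocytes or adrenal cortex. The lists for adipocytes and for macrophages had genes on the array, but these held none of the markers planned for those cell types.

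A value is the log ratio of a gene on an array, the mean over its spots, after each array was centred on its median. The sources used here do not give the base of the logarithm, the dyes or the order of the channels within the ratio, so differences are in log units and no fold change is stated. Signs are those of the deposited ratio, and "above" means that the ratio was higher on the lymphoid arrays. Whether a higher ratio is more tissue RNA or more reference RNA is not settled. On the 2 arrays of lactating mammary gland, where lactating RNA was in channel 1, the milk protein genes CSN1S1 (1.61 and 2.56) and CSN2 (0.76 and 0.79) had positive ratios. If the tissue arrays shared that order, a positive value would be the side of the reference. On the ileum array the epithelial genes EPCAM, ST14 and ELF5 read 1.94, 1.00 and 0.72. MUC1, KRT7, CLDN8 and PLET1 read 0.15, 0.06, 0.03 and -0.01 there. If ileum held more RNA of such genes than the reference, a positive value would be the side of the tissue. EPCAM also read 1.51 on the second reference against reference array. In the text below the 6 values of a gene are given as lymph tissue, spleen and thymus against adipose tissue, adrenal tissue and liver. A difference is the mean of the 3 lymphoid organs minus the mean of the 3 others, with its standard error (SE) from limma. In whole organs, a smaller number of cells of a type and less RNA per cell cannot be told apart.

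The array carried 3888 spots, of which 2538 named 1 gene, 30 several and 1320 none. Values on all 6 arrays were obtained for 1086 of 1155 rows, of which 698 named 1 gene and 388 were unnamed clones. The lymphoid arrays had the wider log ratios. Their standard deviation over rows was 0.236 to 0.238, against 0.147 to 0.167 on the other side (exact permutation test, two-sided, p = 0.1, the smallest that 3 against 3 allows). Rows at least 0.5 from 0 numbered 29, 36 and 44 on the lymph tissue, spleen and thymus arrays. On the adipose tissue, adrenal tissue and liver arrays they numbered 14, 7 and 7 (exact permutation p = 0.1). The mean rank correlation between the spots of a clone was 0.85, 0.78 and 0.67 against 0.68, 0.53 and 0.59 (exact permutation p = 0.2), while the median spread between spots was 0.063 to 0.11 against 0.063 to 0.086 (exact permutation p = 0.9). On the first and second reference against reference arrays that correlation was 0.57 and 0.12, and the median spread 0.10 and 0.32. They had 166 and 373 spots at exactly 0. The second is therefore a noisy yardstick for the values below.

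Across rows, the lymphoid arrays resembled each other more than the other 3 did. Pearson's r was 0.72 between lymph tissue and spleen, 0.49 between lymph tissue and thymus, and 0.45 between spleen and thymus. Among adipose tissue, adrenal tissue and liver it ran from -0.26 to 0.14. The adipose array was closer to the lymphoid arrays than to its own side, with r of 0.33, 0.51 and 0.41 to lymph tissue, spleen and thymus but -0.04 to adrenal tissue and 0.14 to liver. The adrenal array was negatively related to lymph tissue (-0.12), spleen (-0.25) and thymus (-0.19). These correlations are across rows, which are not independent replicates, and every pair shares the reference RNA.

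**Figure D1:**
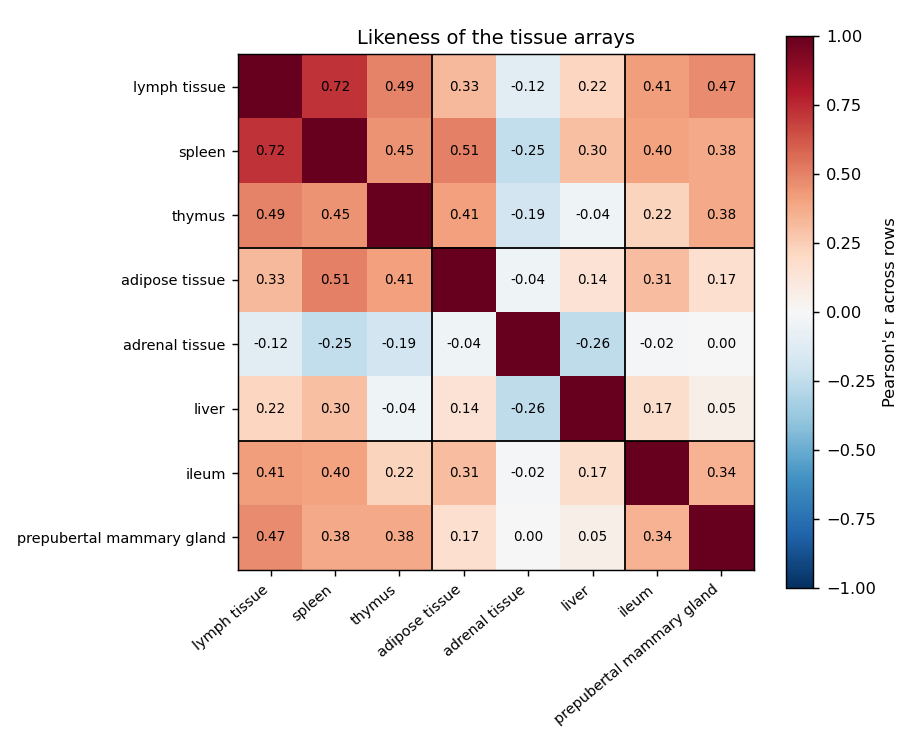
Pearson's r across rows between the 8 arrays that set a tissue against the reference, as a colour scale from -1 to 1 with the value in each cell; black lines part the lymphoid organs, the 3 other organs and the 2 tissues outside the comparison. The lymphoid block reaches 0.72, and adrenal tissue has r of -0.26 to 0.00 with the 7 others.

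At an adjusted p of 0.05, limma called 0 of 1086 rows (0%) between the lymphoid and the other organs. The lowest adjusted p was 0.0665, shared by CD47, ASF1A and 1 unnamed clone. At an unadjusted p under 0.05, 100 rows were above on the lymphoid arrays (9.21%) and 101 below (9.3%). Counted without a test, the 3 lymphoid values all lay above the 3 others in 150 rows (13.8%) and all below in 138 (12.7%), of which 93 and 88 named a gene. Differences were small: the median distance from 0 was 0.138 and the median SE 0.108. A difference of at least 0.5 was found in 14 rows, 11 above and 3 below, and 1 row passed 1.

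The side with the lymphoid organs was also the side with the wider ratios. In these counts, array scale and a difference between organs cannot be told apart. In 271 of the 288 rows without overlap (94.1%) the lymphoid mean was the farther from 0, against 888 of all 1086 (81.8%). After the arrays were scaled to the same median absolute deviation, 80 rows lay above and 97 below, of which 78 and 88 were among the rows counted before. Quantile normalization gave 84 and 95, of which 81 and 86 were among them, and neither scaling gave a call.

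**Figure D2:**
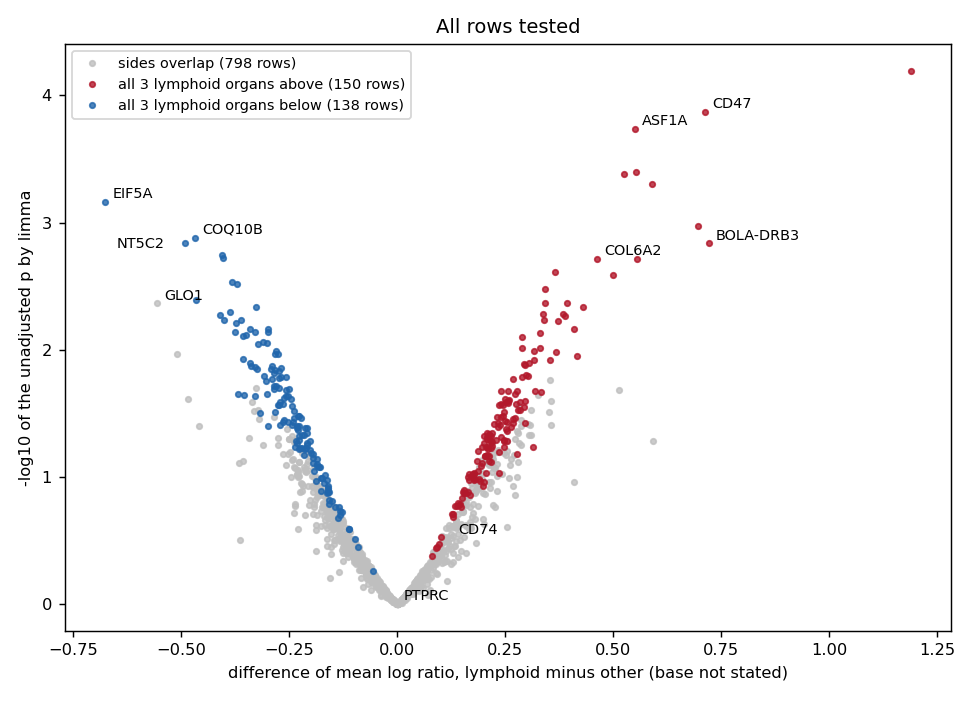
Each point is 1 of the 1086 rows; the horizontal axis is the difference of the mean log ratio, lymphoid minus other, and the vertical axis -log10 of the unadjusted limma p. Red points have all 3 lymphoid organs above (150 rows), blue points all 3 below (138), and the farthest point on the right is an unnamed clone at 1.19.

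BOLA-DRB3, the beta chain of the bovine class II molecule DR, had the largest difference of any named gene with sides that did not overlap. Its log ratios were 1.03, 1.04 and 0.28 against 0.13, 0.05 and 0.01. Lymph tissue and spleen stood together near 1, whereas thymus lay nearer to the 3 other organs than to them. The difference was 0.72 ± 0.17 (SE, 95% interval 0.34 to 1.10), with a limma adjusted p of 0.139. Without the thymus array the difference was 0.97 and the limma adjusted p 0.00239. With all 6 arrays kept and array weights they were 0.86 and 0.00989. No setting beyond these 2 called the gene. With trend and robust settings the SE was 0.35 and the limma adjusted p 0.257. With the reference against reference arrays sharing the spread they were 0.21 and 0.393. Over 19 alternative settings the adjusted p ran from 0.00239 to 0.59 and the difference from 0.52 to 0.97. On the reference against reference arrays the gene stood at -0.33 and 0.18.

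CD74, the invariant chain that guides class II molecules, had values of 0.48, 0.19 and 0.08 against 0.15, 0.11 and 0.12. Lymph tissue alone stood apart, and thymus was below all 3 other organs. The difference of 0.12 ± 0.11 had an interval of -0.125 to 0.37 (limma adjusted p = 0.556). That of BOLA-DRB3, 0.34 to 1.10, overlapped it at the edge, and the 2 genes were not tested against each other. Without the lymph tissue array the CD74 difference was 0.01, and without thymus 0.21. PTPRC, the pan-leukocyte phosphatase, read -0.10, -0.09 and 0.06 against -0.02, 0.28 and -0.38. Its highest value was that of adrenal tissue and its lowest that of liver. The difference was -0.002 ± 0.15, with an interval of -0.32 to 0.32 (limma adjusted p = 0.994), and its sign turned under 8 of the alternative settings. Of the 3 genes that mark immune cells here, 1 separated the sides, where 13.8% of all rows lay above and 12.7% below without overlap.

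Class I presentation was measured by 3 genes, each with a positive difference, as 501 of all 1086 rows had. Of the 3, 1 lay above without overlap (13.8% over all rows). TAP1, a subunit of the transporter that carries peptides to class I molecules, read 0.25, 0.08 and 0.28 against -0.05, -0.13 and 0.04. These values did not overlap, and the difference was 0.25 ± 0.10 (limma adjusted p = 0.244). The class I gene listed as BOLA read 0.15, 0.21 and 0.16 against -0.05, -0.12 and 0.17. Liver lay within the lymphoid range, and the difference was 0.17 ± 0.10 (limma adjusted p = 0.354). Class I genes are close copies of each other, so a cDNA spot may bind transcripts of several. PDIA3, a chaperone of the class I loading complex, overlapped, at 0.08 ± 0.11.

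The other genes of the leukocyte list, not all of them restricted to leukocytes, lay on both sides. CD47, a membrane protein that binds a receptor of phagocytes and restrains engulfment, read 0.42, 0.41 and 0.77 against -0.01, -0.16 and -0.36. Thymus was the highest organ and liver the lowest, and a gap of 0.42 parted the sides. The difference of 0.71 ± 0.13 (interval 0.43 to 0.99) had the lowest adjusted p of any named gene, 0.0665 by limma. Over the 17 alternative settings that kept CD47, the limma adjusted p ran from 0.0208 to 0.59 and the difference from 0.60 to 0.80. It dropped out when at least 3 spots were required. With exact 0 kept as a value the difference was 0.63 (limma adjusted p = 0.188). CD47 gave -1.14 on the first reference against reference array and no value on the second, so a ratio of that size also arose without a tissue. CD300LG, a receptor of the CD300 family, read 0.19, 0.22 and 0.07 against -0.09, -0.00 and -0.06, a difference of 0.21 ± 0.09 (limma adjusted p = 0.263).

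RAC2, a GTPase found mainly in blood cells, lay the other way, at -0.27, -0.47 and -0.29 against -0.12, -0.00 and -0.04. Its difference of -0.29 ± 0.10 had a limma adjusted p of 0.216. LCP1, the actin-bundling plastin of leukocytes, read -0.35, -0.34 and -0.17 against 0.01, -0.02 and -0.23. Liver lay within the lymphoid range there, and the difference was -0.21 ± 0.11. LGALS9, a galectin, differed by 0.00 ± 0.10. Of the 9 genes of the leukocyte list 4 had a positive and 5 a negative difference, with 2 without overlap above, 1 below (13.8% and 12.7% over all rows) and a median of -0.00. Those planned as general leukocyte markers, PTPRC, LCP1 and RAC2, differed by -0.002, -0.21 and -0.29, so none was positive.

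Both genes of the macrophage list lay above without overlap, as 13.8% of all rows did, and 1 of the 2 had an unadjusted limma p under 0.05. Neither was among the markers planned for macrophages, so they do not measure the number of these cells. The plan also named macrophage as the possible type of the reference cell line. CSF1, the growth factor on which macrophages depend, read 0.21, 0.20 and 0.42 against 0.01, -0.07 and -0.28. Thymus was again the highest and liver the lowest, and the difference was 0.39 ± 0.11 (limma adjusted p = 0.184). FCGR2B, an inhibitory receptor for antibody, was measured by 9 spots and read 0.12, 0.17 and 0.15 against 0.08, -0.00 and -0.01, a difference of 0.13 ± 0.09 (limma adjusted p = 0.433).

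Cytokines and innate signalling genes held 13 members with a median difference of -0.06, 1 above without overlap and 2 below (13.8% and 12.7% over all rows). CSF1 was the member above. CSF2RB, the shared beta chain of receptors for several blood cell growth factors, read -0.16, -0.21 and 0.07 against 0.19, 0.25 and 0.11, a difference of -0.29 ± 0.11 (limma adjusted p = 0.234). TBK1, a kinase of the interferon response, read -0.42, -0.11 and -0.11 against 0.06, 0.03 and -0.02 and differed by -0.24 ± 0.11 (limma adjusted p = 0.264). IL6, an inflammatory cytokine, differed by -0.29 ± 0.12, but its spleen value of 0.04 lay within the range of the other organs. The 3 IRAK kinases and the 2 TRAF adaptors, which relay Toll-like and interleukin signals, overlapped.

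**Figure D3:**
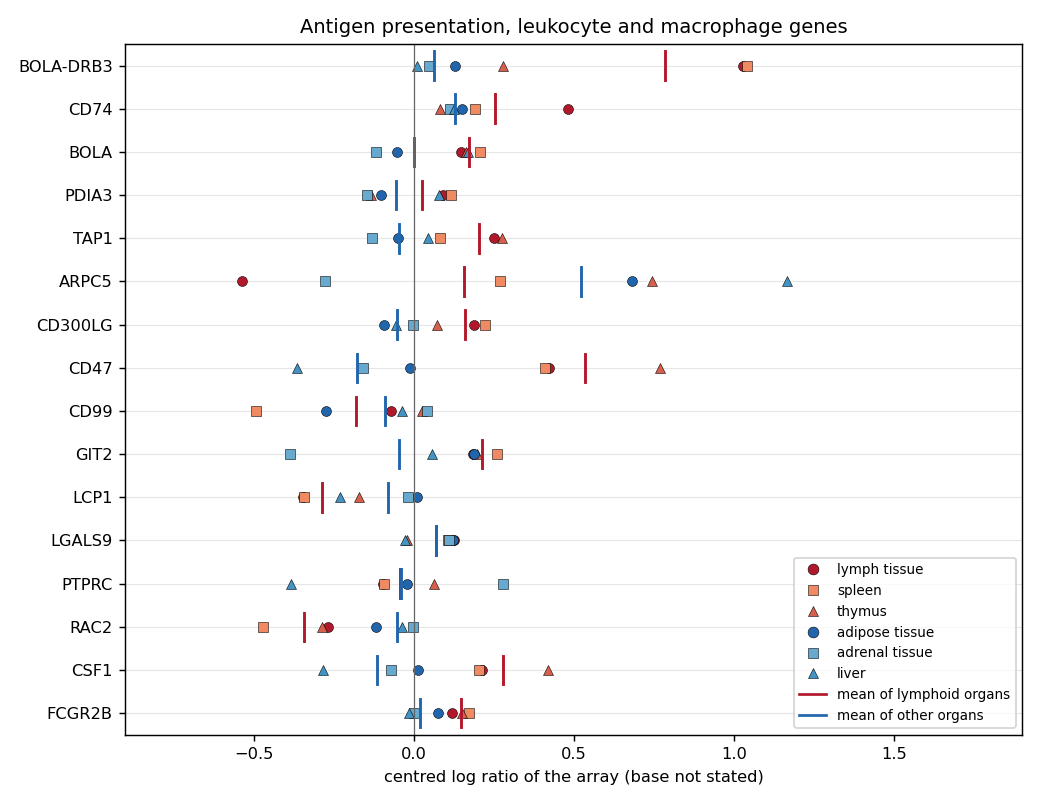
Centred log ratios of the 16 measured genes of the class II, class I, leukocyte and macrophage lists; each symbol is 1 organ (red tones lymphoid, blue tones other), and vertical bars are the means of 3 organs. BOLA-DRB3 and CD47 show the widest gaps between the bars, while PTPRC and LGALS9 have bars that nearly coincide.

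Beyond the immune genes, the 12 named genes of smallest p above and the 12 below are given as values, since no row passed the test. Those above differed by 0.33 to 0.72 and those below by -0.68 to -0.30. In each of the 12 above the lymphoid values were positive, and in each of the 12 below they were negative. The other organ closest to the lymphoid values was adipose tissue in 9 of the genes above and 8 of those below. Neither count was made over all rows without overlap. Of the 24 genes, 7 had a value on a reference against reference array at least as far from 0 as their difference. The share over all rows was not counted, and the spots of the second of these arrays agreed poorly.

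ASF1A, a chaperone that hands histones H3 and H4 to chromatin, read 0.46, 0.62 and 0.39 against -0.12, 0.04 and -0.10. A gap of 0.35 parted the organs, with spleen highest, and the difference was 0.55 ± 0.10 (interval 0.33 to 0.77, limma adjusted p = 0.0665). The second reference against reference array gave -0.60 for this gene and the first 0.00. TEAD3, a transcription factor of the Hippo pathway, read 0.41, 0.27 and 0.23 against -0.07, -0.06 and -0.06. The 3 other organs agreed to within 0.01, and the difference was 0.36 ± 0.09 (limma adjusted p = 0.165).

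MSL3, a chromatin-binding subunit of a histone acetylase complex, read 0.39, 0.23 and 0.40 against 0.11, -0.04 and -0.08, a difference of 0.34 ± 0.10 (limma adjusted p = 0.184). For ELOA, elongin A of the complex that speeds RNA polymerase II, the values were 0.22, 0.47 and 0.37 against 0.03, 0.10 and -0.05. Its difference was 0.33 ± 0.10 (limma adjusted p = 0.186). SLF2, a factor of DNA repair, read 0.13, 0.30 and 0.32 against 0.10, -0.36 and -0.22. Lymph tissue and adipose tissue were 0.03 apart there, and the sides overlapped after either scaling of the arrays. The difference was 0.41 ± 0.12 (limma adjusted p = 0.186).

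COL6A2, a chain of collagen VI, read 0.27, 0.39 and 0.26 against 0.07, -0.33 and -0.21, a difference of 0.46 ± 0.12 (limma adjusted p = 0.139). Its partner chain COL6A1 overlapped, at 0.31, -0.05 and 0.33 against 0.08, -0.11 and -0.06. IGSF5, a junctional adhesion molecule, read 0.16, 0.27 and 0.46 against 0.07, -0.36 and -0.32, with a difference of 0.50 ± 0.13 (limma adjusted p = 0.165). Thymus led this gene as it did CD47 and CSF1. The scaffold protein CASKIN2 read 0.31, 0.37 and 0.27 against 0.04, -0.06 and -0.06 and differed by 0.34 ± 0.09 (limma adjusted p = 0.18). LHFPL2, a membrane protein with several spans, read 0.34, 0.15 and 0.22 against -0.03, -0.18 and -0.09, a difference of 0.34 ± 0.10 (limma adjusted p = 0.184), but stood at -1.32 on the second reference against reference array.

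Among the genes below, EIF5A, the translation factor that carries hypusine, had the largest difference. It read -0.75, -0.42 and -0.53 against 0.20, 0.36 and -0.23, and differed by -0.68 ± 0.15 (interval -0.9997 to -0.35, limma adjusted p = 0.106). Its 2 sets of clones disagreed in size. The first differed by -1.24, with -1.14, -0.51 and -1.05 against 0.46, 0.82 and -0.26, and the second by -0.23, with a thymus value of -0.00. With the median over all 6 spots in place of the mean the difference was -0.34. Without the liver array it was -0.85 and the limma adjusted p 0.045, within a range of 0.0208 to 0.59 over 19 settings.

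COQ10B, which binds coenzyme Q in mitochondria, read -0.39, -0.36 and -0.52 against -0.16, 0.13 and 0.16, a difference of -0.47 ± 0.11 (limma adjusted p = 0.139). NT5C2, a cytosolic nucleotidase of purine metabolism, read -0.27, -0.18 and -0.58 against 0.23, 0.05 and 0.16 and differed by -0.49 ± 0.12 (limma adjusted p = 0.139). The thymus value was the lowest for both genes. NDUFB11, a subunit of respiratory complex I, read -0.22, -0.26 and -0.42 against 0.14, -0.11 and 0.19, a difference of -0.37 ± 0.11 (limma adjusted p = 0.185), and its sides overlapped after quantile normalization. BLMH, a cytosolic cysteine protease, read -0.41, -0.31 and -0.54 against -0.09, 0.04 and 0.01, a difference of -0.41 ± 0.10 (limma adjusted p = 0.139).

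DTNB, a dystrobrevin of the dystrophin complex, read -0.51, -0.32 and -0.47 against -0.13, 0.06 and -0.02, with a difference of -0.40 ± 0.10 (limma adjusted p = 0.139). KATNA1, the catalytic subunit of the microtubule-severing enzyme katanin, read -0.44, -0.32 and -0.55 against -0.13, 0.04 and -0.08, with a difference of -0.38 ± 0.10 (limma adjusted p = 0.173). BUB3, a protein of the spindle checkpoint, read -0.52, -0.58 and -0.35 against -0.09, -0.27 and -0.01. Thymus was the lymphoid organ nearest to the others here, and the difference was -0.36 ± 0.11 (limma adjusted p = 0.184). DAB2, an endocytic adaptor, read -0.48, -0.37 and -0.51 against -0.20, -0.00 and -0.04 and differed by -0.37 ± 0.10 (limma adjusted p = 0.173). BUB3 and DAB2 overlapped between the sides after either scaling of the arrays, with differences of -0.21 and -0.23 at equal median absolute deviation.

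POLR1E, a subunit of the polymerase that makes ribosomal RNA, read -0.31, -0.63 and -0.43 against -0.21, 0.01 and -0.01 and differed by -0.39 ± 0.11 (limma adjusted p = 0.184), with overlap after either scaling and -0.25 at equal median absolute deviation. KRT7, a keratin of simple epithelia, read -0.37, -0.57 and -0.29 against -0.13, -0.01 and -0.05, a difference of -0.34 ± 0.10 (limma adjusted p = 0.186), or -0.22 at equal median absolute deviation. KERA, the proteoglycan keratocan, had narrow sides, with -0.33, -0.23 and -0.26 against 0.00, 0.05 and 0.02, a difference of -0.30 ± 0.09 (limma adjusted p = 0.186). After both scalings, 19 of the 24 named genes had sides without overlap. They had been chosen for small p on the same values, so this count is no independent check. Of all 150 rows above and 138 below, 78 and 88 stayed without overlap at equal median absolute deviation. After quantile normalization 81 and 86 did.

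**Figure D4:**
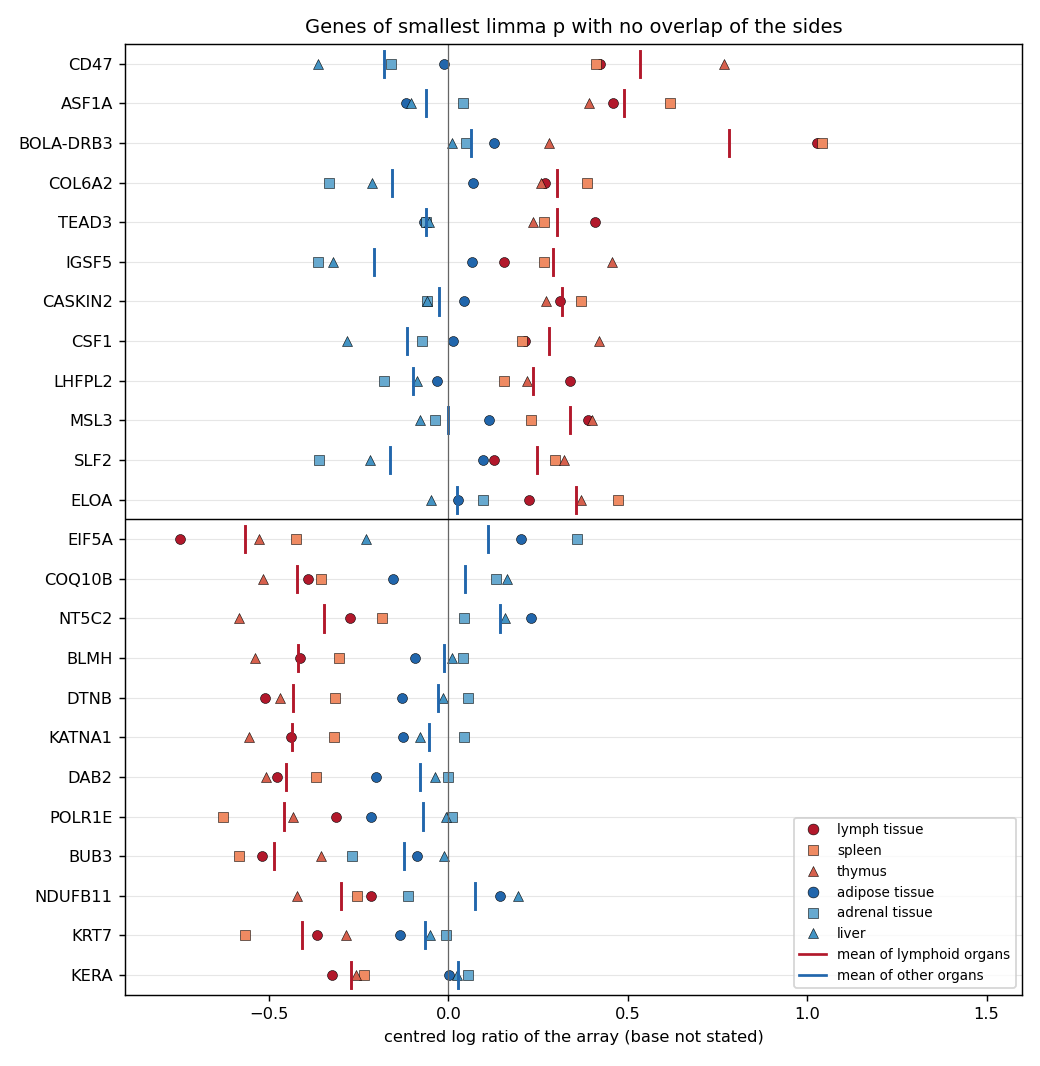
Centred log ratios of the 12 named genes above (upper rows) and the 12 below (lower rows), ordered by limma p; each symbol is 1 organ and vertical bars are the means of 3 organs. BOLA-DRB3 and EIF5A show the widest spread within the lymphoid and the other organs, respectively, and the 3 other organs of TEAD3 and KERA sit close together.

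Of 6 hepatocyte and plasma protein genes, 6 had a positive difference, as 501 of all 1086 rows did. Their median was 0.10, with 1 above and 0 below without overlap (13.8% and 12.7% over all rows). FGG, a chain of fibrinogen, read 0.07, 0.12 and 0.10 against 0.03, -0.06 and 0.21, so liver had the highest ratio of the 6 organs, which would be the lowest level if the sign were turned. C3, the central complement protein, read 0.22, -0.24 and 0.19 against 0.44, 0.62 and -1.10, so liver had the lowest ratio. The spots of C3 disagreed, with a median spread on an array of 0.60 and a largest of 2.15. Among 12 adipocyte and lipid genes the median was 0.05, with 2 above and 1 below without overlap, beside the same shares of all rows. IDI1, an enzyme of isoprenoid synthesis, lay above by 0.26 ± 0.10 and CPT2, which brings fatty acids into mitochondrial oxidation, by 0.15 ± 0.10. ACSL1, which activates long-chain fatty acids, lay below by -0.18 ± 0.10. The fatty acid transporter CD36 had its highest ratio in adipose tissue, at 0.20, with liver at 0.16 and thymus at 0.13, an order that reverses if the sign is turned.

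Stroma and matrix genes numbered 16, with a median of -0.04, 0 below and 2 above without overlap (12.7% and 13.8% over all rows), COL6A2 and the microfibril protein MFAP5 (0.25 ± 0.10, limma adjusted p = 0.234). Among 3 endothelial genes 1 lay above without overlap, the sialomucin EMCN, at 0.22 ± 0.10. Smooth muscle and actin genes numbered 15, with 2 above and 1 below, and included ACTR1A, the actin-related protein of dynactin, at 0.29 ± 0.09 (limma adjusted p = 0.206). ARPC5, a subunit of the complex that branches actin, had the widest scatter of that list, at -0.54, 0.27 and 0.74 against 0.68, -0.28 and 1.16. Its own spots also disagreed, with a median spread on an array of 0.51 and a largest of 1.18.

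The epithelium list had 7 genes, with 0 above and 2 below without overlap (13.8% and 12.7% over all rows). These were KRT7 and CLDN8, a claudin of tight junctions, which read -0.36, -0.42 and -0.02 against 0.04, 0.01 and 0.01. Its thymus value lay near those of the other organs, and the difference was -0.28 ± 0.12 (limma adjusted p = 0.242). The milk secretion list, with the caseins and other proteins of the lactating gland, had 9 genes and 0 without overlap. Its differences ran from -0.13 to 0.21 with a median of -0.02.

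Proliferation genes numbered 13, with a median of 0.04, 1 above and 2 below without overlap (13.8% and 12.7% over all rows). MCM3, a subunit of the replicative helicase, lay above by 0.27 ± 0.10 (limma adjusted p = 0.223), but the helicase subunits MCM6 and MCM7 overlapped, at -0.15 ± 0.10 and -0.06 ± 0.11. PCNA, the sliding clamp of replication, read 0.09, -0.06 and -0.00 against -0.02, 0.02 and 0.00. CETN2, a centrin of the centriole, read -0.35, -0.09 and -0.71 against 0.04, -0.07 and -0.01 and differed by -0.37 ± 0.14 (limma adjusted p = 0.234).

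Genes of endoplasmic reticulum and secretory traffic numbered 29, with 1 above and 5 below without overlap and a median of -0.07. Those below were YIPF1 (-0.33 ± 0.10), a Golgi membrane protein, BET1 (-0.36 ± 0.14), a fusion protein of transport vesicles, MCFD2 (-0.31 ± 0.11), a cargo receptor subunit, KDELR3 (-0.28 ± 0.09), which retrieves resident proteins, and the small GTPase RAB34 (-0.19 ± 0.10). YIPF1 read -0.41, -0.33 and -0.20 against 0.12, -0.04 and -0.03, with a limma adjusted p of 0.186. The syntaxin STX12 lay above, at 0.22 ± 0.10. These counts, 5 of 29 and 1 of 29, stand beside a background of 12.7% below and 13.8% above.

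Of 16 solute carriers, 4 lay above and 2 below without overlap (13.8% and 12.7% over all rows), with a median of 0.10. SLC37A2, a sugar phosphate carrier, read 0.44, 0.15 and 0.32 against 0.13, -0.25 and -0.07, a difference of 0.37 ± 0.12 (limma adjusted p = 0.206). SLC22A4, a carrier of organic cations and ergothioneine, read 0.21, 0.20 and 0.26 against -0.02, -0.03 and -0.01, with a difference of 0.24 ± 0.09 (limma adjusted p = 0.234). The copper carrier SLC31A1 and the nucleoside carrier SLC28A3 were the others above. SLC40A1, the iron exporter ferroportin, lay below at -0.32, -0.30 and -0.14 against -0.11, -0.05 and 0.01, a difference of -0.20 ± 0.10. SLC3A2, a heavy chain of amino acid exchangers, differed by -0.20 ± 0.10.

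Ribosome and translation genes (21) and RNA splicing genes (25) each had 3 above and 3 below without overlap (13.8% and 12.7% over all rows), with medians of -0.08 and -0.01. The tRNA synthetases lay on both sides, with QARS1 (0.24 ± 0.09) and GARS1 (0.20 ± 0.10) above and HARS1 (-0.25 ± 0.10) below. So did the splicing factors, with SRSF5 (0.20 ± 0.09) above and the helicase DDX1 (-0.23 ± 0.10) below. SF3B3, a subunit of the spliceosome, had a difference of 0.59 ± 0.27 that rested on an adrenal value of -1.06, the other 5 organs lying between 0.16 and 0.47. The spots of SF3B3 had a spread of up to 1.05 on an array. Proteasome and ubiquitin genes (13) had 3 above and 3 below, among them CUL1 (0.28 ± 0.10) and UBE2A (-0.29 ± 0.11). Mitochondrial respiration (12) had 1 above, OGDH (0.29 ± 0.12), and 1 below, NDUFB11. Chaperones (9) and lysosome and sphingolipid genes (5) had 0 without overlap. Of the 3 loading control genes, HPRT1 lay above at 0.26 ± 0.10, while ACTB and YWHAZ overlapped.

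**Figure D5:**
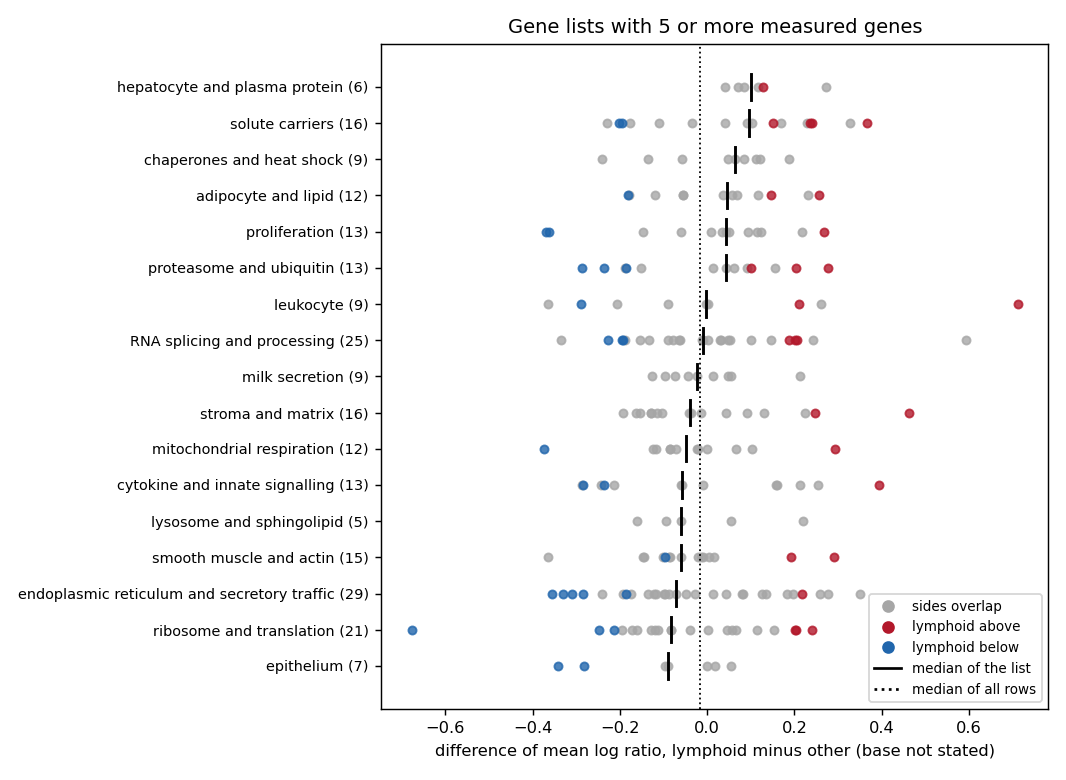
Difference of the mean log ratio, lymphoid minus other, for each gene of the lists with 5 or more measured genes (number in brackets), ordered by the median; red and blue points have sides without overlap and grey points overlap. List medians lie between -0.09 and 0.10, around the median of all rows at -0.02, and the widest points are CD47 on the right of the leukocyte list and EIF5A on the left of the translation list.

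BOLA-DRB3 was used to look for genes of similar pattern over the 8 arrays that set a tissue against the reference. Among 694 genes, the highest Pearson's r belonged to CD74 (0.95), EPCAM (0.95), XIST (0.94), ABCE1 (0.93) and ELOA (0.93). EPCAM is an epithelial adhesion protein, XIST the RNA of X inactivation and ABCE1 a ribosome recycling factor. The ileum array, where BOLA-DRB3 read 3.17, carried much of this likeness: over the 7 arrays without it r was 0.65, 0.77, 0.55, 0.76 and 0.50 in the same order. All arrays share the reference RNA.

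The row with the largest difference was an unnamed clone (spots 2629 to 2631). It read 1.06, 0.97 and 0.62 against 0.15, -0.30 and -0.77, a difference of 1.19 ± 0.20 (interval 0.76 to 1.62, limma adjusted p = 0.0665). Liver and adrenal tissue lay on the opposite side of 0 from the lymphoid organs. A second unnamed clone (spots 3661 to 3663) had the shape of BOLA-DRB3, at 0.95, 0.98 and 0.31 against 0.07, 0.14 and -0.05, with a difference of 0.70 ± 0.16 (limma adjusted p = 0.139). Another (spots 2545 to 2547) had the tightest lymphoid values of the 5 unnamed rows of smallest p, at 0.50, 0.53 and 0.53 against -0.13, 0.20 and -0.09, and differed by 0.53 ± 0.11 (limma adjusted p = 0.0892).

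Single organs set how many rows parted the sides. Leaving out thymus raised the rows below without overlap from 138 to 264, and leaving out adipose tissue raised them to 216; fewer values overlap less often, and the other omissions gave 160 to 194. The rows above numbered 181 to 212 when 1 organ was left out. Calls at an adjusted p of 0.05 were 4 without thymus, among them BOLA-DRB3 and GLO1, 1 without adipose tissue and 1 without liver, and 0 without lymph tissue, spleen or adrenal tissue. GLO1, a glyoxalase that detoxifies methylglyoxal, was picked out after its values were seen. It read -0.66, -0.71 and -0.09 against 0.17, 0.15 and -0.11, so thymus lay among the other organs. Over all 6 arrays its difference was -0.56 ± 0.16 (limma adjusted p = 0.184), and without thymus -0.76 (limma adjusted p = 0.0291), within a range of 0.0208 to 0.59 over 19 settings.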

How the data were processed

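The 13 arrays were deposited as 1 log ratio per spot, which the authors had already computed; the sources used here do not give its base, the background correction or the normalization. The 6 arrays of the comparison had deposited medians of -0.0031 to 0.025 and 166 to 193 spots at exactly 0, which were treated as missing. Each array was centred on its median. Spots of 1 gene, or the 3 spots of an unnamed clone, were averaged, with at least 2 spots per array and a value on all 6 arrays. Of 706 genes on the array, 703 were in the RefSeq gene table of assembly ARS-UCD2.0, 0 symbols changed and 8 genes were not tested. The mean of the lymphoid arrays minus that of the others was tested with limma 3.58.1 under R 4.3.3, two-sided, by its functions lmFit and eBayes, with Benjamini-Hochberg adjustment over all 1086 rows at 0.05; residual degrees of freedom were 4 and the prior added 7.61. The fit was tested on simulated data. Array properties were compared by exact permutation with scipy 1.17.1. No intensities were used. Precision is limited by the number of arrays.

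Named genes are, per direction, the 12 of largest difference past the threshold without overlap, filled up with those of smallest p without overlap. Since 0 passed, all were chosen by p. The members, the gene lists and the rule were chosen with earlier results of these data known, and 7 genes whose symbol matched a list but whose function lies outside it were taken out after the members were seen. Alternatives varied centring, scaling, exact 0, the summary of and filter on spots, the rows and arrays in the fit, the spread, array weights and the organs used.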

Additional observations from a re-analysis of the deposited data

Results flagged for a closer look

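Values outside the comparison stood above those of both reference against reference arrays by 1 log unit or more for 4 genes that the comparison names. The ileum array gave 3.17 for BOLA-DRB3, where the 2 reference against reference arrays gave -0.33 and 0.18. It gave 2.41 for CD74, against 0.09 and -0.19. ASF1A read 2.29 on the ileum array and 1.10 on that of prepubertal mammary gland, against 0.00 and -0.60. ELOA read 2.10 on the ileum array, against 0.01 and -0.17. Ileum and prepubertal mammary gland have 1 array each against the reference, so these values have no test. Each ileum value lay above all 6 organs of the comparison, whose highest values were 1.04, 0.48, 0.62 and 0.47 for these genes. The ileum array was wide throughout, with a standard deviation over rows of 0.55 against 0.15 to 0.24 on those 6 arrays. Rows at least 1 from 0 numbered 86 on the ileum array and 10 on the prepubertal mammary array, against 0 to 3 on the 6. Large ileum values are therefore not particular to these genes.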

How the results depend on the processing

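Of 19 alternative settings, 12 gave 0 calls, as the analysis reported here did, and 7 gave some. Requiring at least 3 spots gave 1 call (1 above). Testing rows that name 1 gene gave 2 (2 above), CD47 and ASF1A, both with limma adjusted p = 0.0449, over 698 rows, and 93 rows above and 88 below without overlap, the count falling because fewer rows entered. A spread with trend and robust settings gave 3 calls (3 above), and array weights gave 10 (8 above, 2 below); the cause was not tested. Rows above without overlap numbered 80 after scaling to the same median absolute deviation and 84 after quantile normalization, the array scale being what these settings change. Leaving out 1 organ in turn gave 0 to 4 calls (0 to 3 above, 0 to 1 below), with 181 to 212 rows above and 160 to 264 below without overlap; most calls (4) came without thymus, then 1 each without adipose tissue and without liver. Rows at an unadjusted p under 0.05 ranged from 85 to 257. Of 492 values of 26 genes, 475 kept their direction and side of the threshold, 9 passed it and 8, of PTPRC, turned sign: 0.0018 uncentred, 0.0219 and 0.0081 after the 2 scalings, 0.0061 with the median over spots, and 0.0088 to 0.1586 for 4 of the 6 organs left out (range over all 6, -0.1723 to 0.1586). No paired analysis was possible because the labels do not say which organs, if any, came from the same animal. Each organ has 1 array, which limits any statement about an organ to that hybridisation.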
